A study of Homo sapiens with 4 samples.

Results

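The 10 mature miRNAs described here were followed in the RNA of extracellular vesicles (EVs) released by PC3 cells. They are hsa-miR-29a-3p, hsa-miR-29b-3p, hsa-miR-29c-3p, hsa-miR-34a-5p, hsa-miR-133a-3p, hsa-miR-145-5p, hsa-miR-204-5p, hsa-miR-210-3p, hsa-miR-214-3p and hsa-miR-218-5p, 10 of the 2588 human miRNA names in the count table. They were chosen for their known roles in osteoblast differentiation and not by a rule on their counts, although earlier results of these data were known. PC3 is a line of human prostate cancer (PCa) cells first grown from a metastasis in bone, and the study asked what RNA its EVs could carry to bone cells. The vesicles came from cells kept in medium with exosome-free serum. The labels give qEV columns for their isolation, and the study's methods name the exoEasy Maxi kit as well. From their RNA, 2 libraries of small RNA and 2 of stranded total RNA were sequenced. All libraries come from untreated PC3 vesicles, so the design holds 1 condition and 1 cell line, and vesicles of other cells were not analysed here. No test between conditions applies, and the values below describe these libraries, with the spread between the 2 libraries of each assay.

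A miRNA is a short RNA that binds messages through its seed, bases 2 to 8 counted from the 5′ end, and lowers their translation or stability. Osteoblasts, the cells that build bone, are steered by RUNX2 and SP7, transcription factors that commit cells to the lineage, and by Wnt signalling, which secreted inhibitors such as DKK1, DKK2, SFRP2 and SOST hold back. The miR-29 family, miR-210 and miR-218 are known to favour osteoblast differentiation, the first by targeting Wnt inhibitors and collagens, the second by targeting the activin receptor ACVR1B and the third by targeting SOST, DKK2 and SFRP2. MiR-133a and miR-204 are known to target RUNX2, miR-145 to target SP7, miR-214 to target ATF4 and SP7, and miR-34a to act on Notch signalling in osteoblasts and on TGIF2 in osteoclasts, the cells that resorb bone.

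The sequences show which of these miRNAs can be told apart by their reads and which share a seed. All 10 matched RefSeq records, and the 10 mature forms are printed 5′ to 3′ with the seed in capitals.
miR-29a-3p: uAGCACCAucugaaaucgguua
miR-29b-3p: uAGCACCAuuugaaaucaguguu
miR-29c-3p: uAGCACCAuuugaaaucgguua
miR-210-3p: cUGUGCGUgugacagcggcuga
miR-218-5p: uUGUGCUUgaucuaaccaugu
miR-34a-5p: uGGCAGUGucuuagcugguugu
miR-133a-3p: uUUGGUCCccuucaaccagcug
miR-145-5p: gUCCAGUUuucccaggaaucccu
miR-204-5p: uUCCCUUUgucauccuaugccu
miR-214-3p: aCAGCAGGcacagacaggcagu

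The 10 sequences carry 8 distinct seeds, because miR-29a, miR-29b and miR-29c share AGCACCA. MiR-29c-3p differs from miR-29a-3p by the single substitution C10U, with positions counted from the 5′ end and the base of miR-29a-3p first. MiR-29b-3p differs from miR-29a-3p by C10U, G18A, U21G and A22U over the aligned bases and is 1 base longer. The mature forms are 21 to 23 bases long, so their counts were compared without scaling by length. Their GC content runs from 34.8% in miR-29b-3p to 63.6% in miR-210-3p.

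Depth set the limit for most of these miRNAs. The small RNA libraries held 154185 and 113185 reads counted on miRNAs, and they are named first and second by column, since the columns carry no replicate number. A single read equals 6.49 CPM (counts per 1000000 miRNA counts) in the former and 8.84 CPM in the latter. A count of 0 allows a level of up to 3 reads, which is 19.5 and 26.5 CPM, or 0.00195% and 0.00265% of the miRNA counts. Such limits and all intervals below cover counting error alone, since PCR copies of a molecule are counted as separate reads. The study's methods call the libraries biological replicates, without saying how the cultures were separated. The titles of both total RNA libraries carry the name EX1, while their descriptions carry EX1 and EX2. The labels do not say whether these came from 1 preparation, so their spread may be technical. All names share 1 total, and of that total miR-3182 took 30.3% and 28.4% and miR-4448 took 20.2% and 28.9% (first and second library).

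MiR-29a-3p, miR-210-3p and miR-218-5p were the only members of the group counted above this limit in both libraries. Of the 10 miRNAs, 4 were identified, meaning that they had at least 1 read in both libraries, which is 40.0% of the group against 14.9% of all 2588 names. With at least 3 reads required in both libraries 3 were left, against 8.38% of all names, and the same 3 had at least 10 reads in both, against 5.56% of all names. A read in either library was found for 5, against 29.6% of all names, since miR-214-3p had a read in 1 library. The other 5 had no read in either. The counts of the group summed to 211 in the first library and 79 in the other. These are 0.137% (95% Wilson interval 0.120 to 0.157%) and 0.0698% (0.0560 to 0.0870%) of the miRNA counts, with a mean share of 0.103% ± 0.0474 (SD, n = 2). The median member had a mean level of 1.62 CPM, less than 1 read in either library. In bulk RNA, fewer vesicles that carry a miRNA and fewer copies in each vesicle cannot be told apart.

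**Figure D1:**
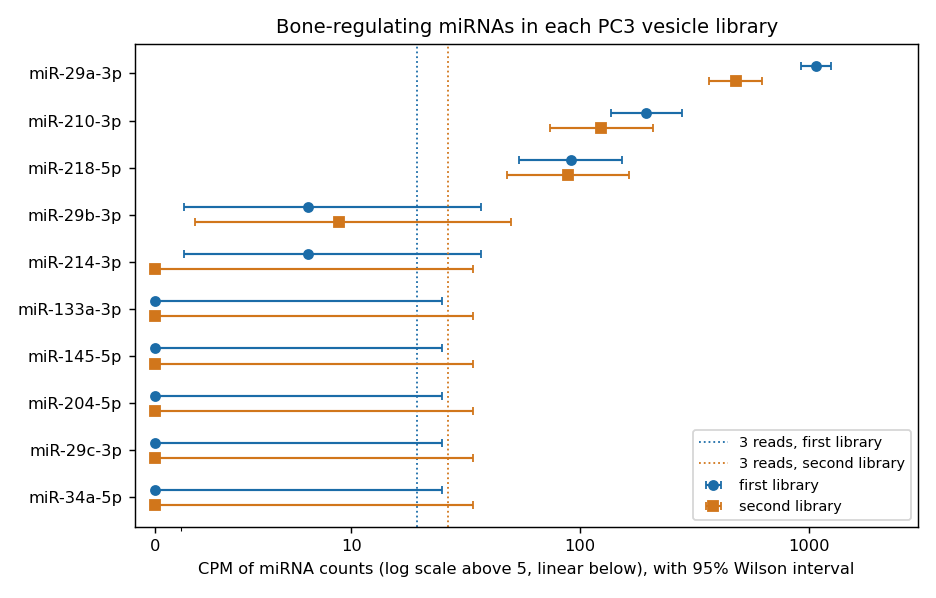
Level of each of the 10 miRNAs in CPM of miRNA counts (x axis, logarithmic above 5 and linear below) in the first (circles) and second (squares) small RNA library, with 95% Wilson intervals as bars and dotted lines at 3 reads. MiR-29a-3p, miR-210-3p and miR-218-5p lie above both dotted lines in both libraries, and the other 7 lie below them.

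MiR-29a-3p, which targets collagen and Wnt inhibitor messages, was the most abundant of the group. It had 165 reads (1070 CPM) in the first library and 54 reads (477 CPM) in the other, and its mean was 774 CPM ± 419 (SD, n = 2). These counts are 0.107% (95% Wilson interval 0.0919 to 0.125%) and 0.0477% (0.0366 to 0.0622%) of the miRNA counts. The intervals of the libraries do not overlap, so its level differed between the libraries by more than counting error. Of the reads of the whole group it supplied 78.2% (72.2 to 83.2%) and 68.4% (57.5 to 77.6%).

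MiR-210-3p, a miRNA induced by low oxygen, had 30 reads (195 CPM) and 14 reads (124 CPM). Its mean was 159 CPM ± 50.1 (SD, n = 2), and the intervals of its share, 0.0136 to 0.0278% and 0.00737 to 0.0208%, overlapped between the libraries. MiR-218-5p had 14 reads (90.8 CPM) and 10 reads (88.4 CPM), and its mean was 89.6 CPM ± 1.73 (SD, n = 2). It was the most even of these 3 between the libraries, although counts this small carry wide intervals, 0.00541 to 0.0152% and 0.00480 to 0.0163% of the miRNA counts. Together miR-29a-3p, miR-210-3p and miR-218-5p held 209 of the 211 reads of the group in 1 library and 78 of the 79 in the other.

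The other members were at or below the limit of the libraries. MiR-29b-3p had 1 read in each library, 6.49 and 8.84 CPM. MiR-214-3p, which restrains osteoblasts through ATF4 and SP7, had a single read, in the first library. No read was counted in either library for miR-29c-3p, for miR-34a-5p, for miR-145-5p, or for miR-133a-3p and miR-204-5p, both regulators of RUNX2. These 5 were not detected at this depth. For miR-29c-3p, 1 base away from miR-29a-3p, how the mapping treated its reads is uncertain as well.

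By mean level the order was miR-29a-3p, miR-210-3p, miR-218-5p, miR-29b-3p and miR-214-3p. It was the same in each library, except that miR-29b-3p and miR-214-3p were tied at 1 read in the first and so do not differ beyond counting error. MiR-29a-3p stood 5.50-fold (95% exact interval 3.71 to 8.41) above miR-210-3p in the first library and 3.86-fold (2.11 to 7.52) above it in the other, and their intervals were separate in both. MiR-210-3p and miR-218-5p were neighbours whose Wilson intervals overlapped in both libraries. Their ratios were 2.14 (1.10 to 4.37) and 1.40 (0.578 to 3.52), so in the second library their order was not settled at this depth. MiR-218-5p against miR-29b-3p had separate Wilson intervals in the first library but overlapping ones in the other. Their ratios were 14.0 (2.13 to 592) and 10.0 (1.42 to 434), with the width set by the single reads of miR-29b-3p. Against the 5 members without a read, taken at 3 reads per library, miR-29a-3p was at least 55.0-fold higher in the first library. In the other it was at least 18.0-fold higher, and the counting error of miR-29a-3p itself is included in neither bound. For miR-29c-3p the bounds also take its reads to have been kept apart from those of miR-29a-3p, which is uncertain.

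Within the miR-29 family, nearly all reads were those of miR-29a-3p. The 3 members summed to 166 reads (1077 CPM) and 55 reads (486 CPM), with a mean of 781 CPM ± 418 (SD, n = 2). MiR-29a-3p made up 99.4% (95% Wilson interval 96.7 to 99.9%) and 98.2% (90.4 to 99.7%) of that sum. Because miR-29c-3p differs from miR-29a-3p by 1 base, and the handling of reads that match several names is not given in the sources used here, how the mapping divided or dropped reads of the family is uncertain, and so are the shares and the sum.

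In the whole miRNA cargo, the 3 members above the limit ranked below the most abundant names. MiR-29a-3p ranked 52 by mean CPM, miR-210-3p ranked 119 and miR-218-5p ranked 147 among the 765 names with a read in either library. The closest names above miR-29a-3p were miR-30c-5p at 831 CPM ± 375 (SD, n = 2) and miR-27a-3p with 807 CPM ± 354 (SD, n = 2). The closest below it were miR-1268a with 737 CPM ± 205 (SD, n = 2) and miR-99a-5p with 728 CPM ± 218 (SD, n = 2). The distances between these neighbours were smaller than the SD of each of them, so the rank of miR-29a-3p within this stretch was not resolved. MiR-21-5p, the miRNA that ranked 6, stood 35.3-fold (95% exact interval 30.3 to 41.5) above miR-29a-3p in the first library and 56.1-fold (42.9 to 74.9) above it in the other.

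**Figure D2:**
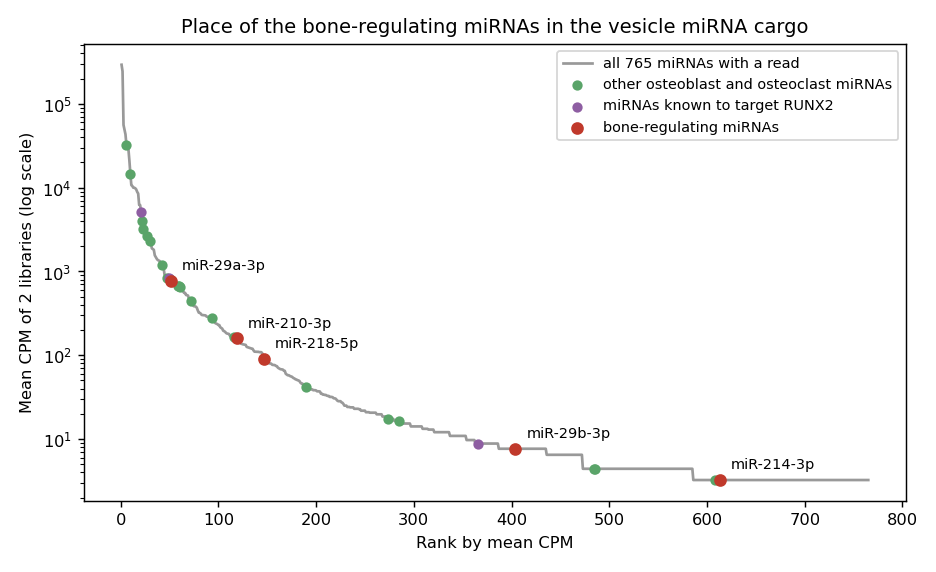
Mean CPM over the 2 small RNA libraries (y axis, logarithmic) against rank (x axis) for the 765 names that had any read, with the bone-regulating miRNAs in red and labelled, miRNAs known to target RUNX2 in purple and other osteoblast and osteoclast miRNAs in green. MiR-29a-3p lies at rank 52, miR-210-3p at 119 and miR-218-5p at 147, and several green points lie at higher levels.

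Of the 3 members above the limit, miR-29a-3p had the highest ratio between the libraries. Its CPM in the first library was 2.24 times (95% exact interval 1.64 to 3.11) that in the second, and 8 of the 144 names with 10 or more reads in each library had a higher ratio. The ratio was 1.57 (0.809 to 3.21) for miR-210-3p, with 34 of the 144 higher, and 1.03 (0.425 to 2.59) for miR-218-5p, with 96 higher. Across the 144 the median ratio was 1.23, the quartiles were 0.964 and 1.54, and the range was 0.367 to 3.95. MiR-29a-3p therefore lay above the upper quartile, and its interval did not reach the median, while those of miR-210-3p and miR-218-5p spanned both 1 and the median. The 3 intervals overlapped one another. The median moved to 1.09 with TMM scaling, which weighs the names so that a few abundant ones count less. With that scaling the ratio was 1.99 for miR-29a-3p, 1.40 for miR-210-3p and 0.912 for miR-218-5p, so the direction for miR-218-5p turned. The share of miR-4448 was higher in the second library, and its own part in these ratios was not tested. With both miR-3182 and miR-4448 left out of the total, the median was 1.06. The ratios were then 1.94 for miR-29a-3p, 1.36 for miR-210-3p and 0.887 for miR-218-5p.

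**Figure D3:**
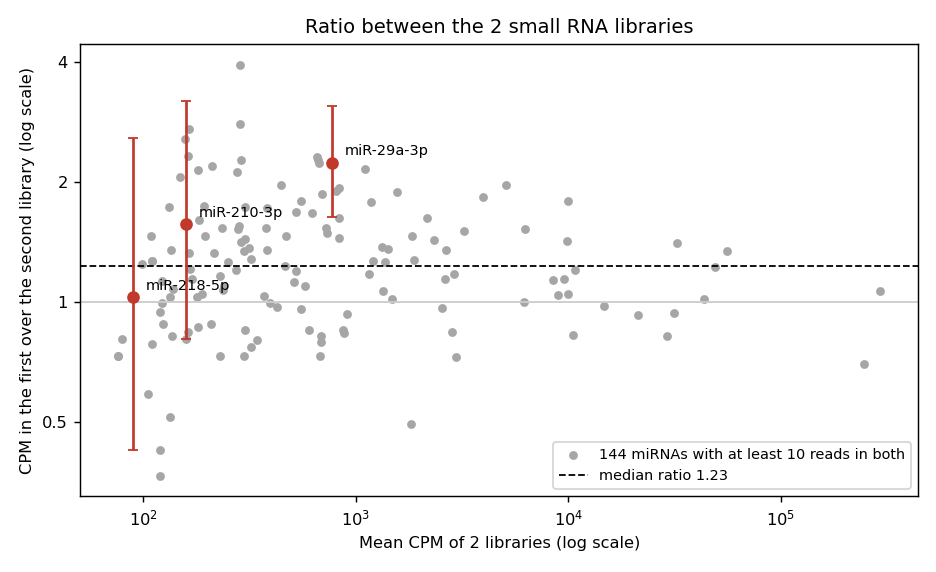
Ratio of CPM in the first to CPM in the second small RNA library (y axis, logarithmic) against mean CPM (x axis, logarithmic) for the 144 names with 10 or more reads in each library, with miR-29a-3p, miR-210-3p and miR-218-5p in red and their 95% exact intervals as bars. The dashed line is the median ratio of 1.23, and of the 3 intervals the one of miR-29a-3p lies wholly above it.

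Each miRNA hairpin yields an arm from either side, and for the 3 members above the limit nearly all reads fell on the arm named in the group. No read was counted on miR-29a-5p or miR-210-5p, so the member arm held 100% of the reads of its hairpin in both libraries. The lower Wilson bounds were 97.7% and 93.4% for miR-29a-3p and 88.6% and 78.5% for miR-210-3p. MiR-218-5p held 93.3% (70.2 to 98.8%) in the library where miR-218-1-3p had 1 read, and 100% (72.2 to 100%) in the other. Of the 12 opposite arms, 0 had a read in both libraries, against 14.9% of all names, and 4 had one in either, against 29.6%. MiR-145-3p had 2 reads and 0, although miR-145-5p had none, and miR-34a-3p had 0 reads and 1, although miR-34a-5p had none. MiR-29b-2-5p and miR-218-1-3p had a single read each, both in the first library. All these counts are within the 3 reads that a count of 0 allows.

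Relatives of the members by seed or family name were counted too. Of 8 relatives (miR-34b-5p, miR-34b-3p, miR-34c-5p, miR-34c-3p, miR-449a, miR-449b-5p, miR-133b and miR-211-5p), 0 had a read in both libraries, against 14.9% of all names, and 2 had one in either, against 29.6%. MiR-34c-5p, another regulator of Notch signalling in osteoblasts, had 0 and 2 reads, and miR-211-5p had 1 and 0. MiR-211-5p carries the seed of miR-204-5p and differs from it by A17U and U18C, and miR-133b carries the seed of miR-133a-3p and differs by G22A.
miR-204-5p: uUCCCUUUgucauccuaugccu
miR-211-5p: uUCCCUUUgucauccuucgccu
miR-133a-3p: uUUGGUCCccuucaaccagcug
miR-133b: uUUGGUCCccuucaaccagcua

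Summed over all names of the table with a matched sequence, the seed of miR-204-5p had 1 read and 0. The seed of miR-133a-3p had none among these names, as had that of miR-34a-5p, which the matched names miR-449a and miR-449b-5p share. The seed of miR-214-3p, shared with miR-3619-5p and miR-761, had 1 read and 0. The seeds of miR-210-3p and miR-218-5p were carried by no other matched name, so their seed sums are their own counts. Sequences were matched for 2281 of the 2588 names, and miR-34c-5p was not among them. The seed of miR-34c-5p was therefore not compared, and its 0 and 2 reads are in none of these sums.

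In the genome (GRCh38), the mature miR-29a-3p lies at chr7:130876748-130876769 on the minus strand, in an intron of the lncRNA gene LINC-PINT. The hairpin of miR-29b-1 is 648 bases away, also in an intron of LINC-PINT. A further copy of miR-29b-3p and miR-29c-3p lie in introns of the lncRNA gene MIR29B2CHG on chromosome 1, at chr1:207802450-207802472 and chr1:207801865-207801886. The hairpins MIR29C and MIR29B2 are 503 bases apart. From these clusters, miR-29a-3p had 165 and 54 reads, miR-29b-3p had 1 and 1, and miR-29c-3p had 0 and 0. MiR-210-3p lies at chr11:568112-568133, minus strand, in an intron of the lncRNA gene MIR210HG. MiR-218-5p has copies at chr4:20528299-20528319 in an intron of SLIT2 and at chr5:168768211-168768231 in an intron of SLIT3, genes for secreted guidance ligands of the ROBO receptors.

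The other members lie elsewhere in the genome. MiR-34a-5p (chr1:9151735-9151756) lies in an exon of MIR34AHG, miR-145-5p (chr5:149430661-149430683) in an intron of CARMN, and miR-204-5p (chr9:70810031-70810052) in an intron of TRPM3, a cation channel gene. MiR-133a-3p has copies in exons of MIR133A1HG (chr18:21825712-21825733) and MIR1-1HG (chr20:62564970-62564991), and miR-214-3p (chr1:172138816-172138837) lies in an exon of DNM3OS. The miRNAs of neighbouring hairpins had these counts. MiR-143-3p, whose hairpin is 1622 bases from MIR145, had 1 read in each library. MiR-199a-5p, whose hairpin MIR199A2 is 5627 bases from MIR214, had none. MiR-1-3p, whose hairpins lie 3218 bases from MIR133A1 and 10535 bases from MIR133A2, had 1 read and 0.

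The total RNA libraries gave a separate view of the genes that host these hairpins. They held 489170 and 475942 reads counted on genes, and 3 reads equal 6.13 and 6.30 CPM of gene counts. Whether the counting used strand is not given in the sources used here, so reads of genes that overlap on opposite strands cannot be told apart. Of 10 host genes on the hairpins' strand, 2 had a read in both libraries, against 21.9% of all protein-coding genes and 7.10% of all lncRNA genes. Both were protein-coding hosts of miR-218-5p, and of the 10 only TRPM3 codes for a protein as well. None of the lncRNA genes among the 10 had a read in both libraries. SLIT2 had 5 and 14 reads in replicates 1 and 2, 19.8 CPM ± 13.6 (SD, n = 2), and SLIT3 had 16 and 7 reads, 23.7 CPM ± 12.7 (SD, n = 2). MIR133A1HG had 0 and 8 reads, and MIB1, which overlaps it on the other strand, had 14 and 0. MIR29B2CHG had 0 and 1, and CD46, which overlaps it on the other strand, had 3 and 3. LNCTAM34A, which overlaps MIR34AHG on the other strand, had 0 and 11. MIR210HG had no read in either library although miR-210-3p had 30 and 14, and MIR34AHG, MIR1-1HG, CARMN, TRPM3 and DNM3OS had none either, nor had DNM3 on the other strand of MIR214. LINC-PINT, which was looked up after its place around MIR29A was found, had 0 and 15 reads, and the overlapping LINC00513 on the other strand had 0 and 24.

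Several other miRNAs with known roles in bone were more abundant than miR-29a-3p. Among 11 miRNAs known to target RUNX2, 3 of which are also in the group, 3 (27.3%) were identified, against 14.9% of all names, and 4 had a read in either library, against 29.6% of all names. MiR-23a-3p had 1044 and 389 reads, 5104 CPM ± 2358 (SD, n = 2), at rank 21. Its level was 74.6-fold (95% exact interval 44.2 to 137) that of miR-218-5p in the first library and 38.9-fold (20.9 to 81.8) in the other. MiR-30c-5p had 169 and 64 reads, 831 CPM ± 375 (SD, n = 2). The third was miR-218-5p. The 7 without a read were miR-133a-3p, miR-135a-5p, miR-137, miR-204-5p, miR-205-5p, miR-217 and miR-338-3p. The summed share of the RUNX2 regulators was 0.796% and 0.411% of the miRNA counts, and most of it was miR-23a-3p.

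Of 24 other miRNAs with roles in osteoblasts or osteoclasts, 17 (70.8%) were identified, again against 14.9% of all names, with a median level of 552 CPM against 1.62 CPM in the group of 10. They summed to 7.48% (95% Wilson interval 7.35 to 7.61%) and 5.51% (5.38 to 5.65%) of the miRNA counts. The list was chosen with earlier results of these data known, so these values describe the list and carry no test. MiR-21-5p, which promotes osteoclast formation, had 5831 and 3031 reads, 32299 CPM ± 7806 (SD, n = 2). MiR-182-5p, an inhibitor of osteoblast genesis through FOXO1, had 2235 and 1680 reads, 14669 CPM ± 246 (SD, n = 2), and was at nearly the same level in both libraries. MiR-26a-5p followed with 3961 CPM ± 1653, miR-24-3p with 3221 CPM ± 920, miR-222-3p with 2669 CPM ± 564 and miR-103a-3p with 2334 CPM ± 589 (all SD, n = 2). The orders of miR-26a-5p against miR-24-3p and of miR-222-3p against miR-103a-3p rested on differences in mean smaller than the larger SD of each pair. Both orders were the same in each library. The Wilson intervals of the shares were separate only for miR-26a-5p against miR-24-3p in the first library. Lower in the list, miR-125b-5p had 1183 CPM ± 473, miR-542-3p had 837 CPM ± 284 and miR-148a-3p had 163 CPM ± 19.5 (all SD, n = 2). The last of these is near miR-210-3p, at 159 CPM ± 50.1.

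At the low end of that list, miR-335-5p had 10 and 2 reads, miR-155-5p had 4 and 1, and miR-146a-5p had 5 and 0. MiR-138-5p and miR-141-3p had 0 and 1, and miR-196a-5p had 1 and 0. MiR-200a-3p, miR-206 and miR-223-3p had no read in either library. The list therefore held both names far above miR-29a-3p and names as scarce as miR-29b-3p.

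**Figure D4:**
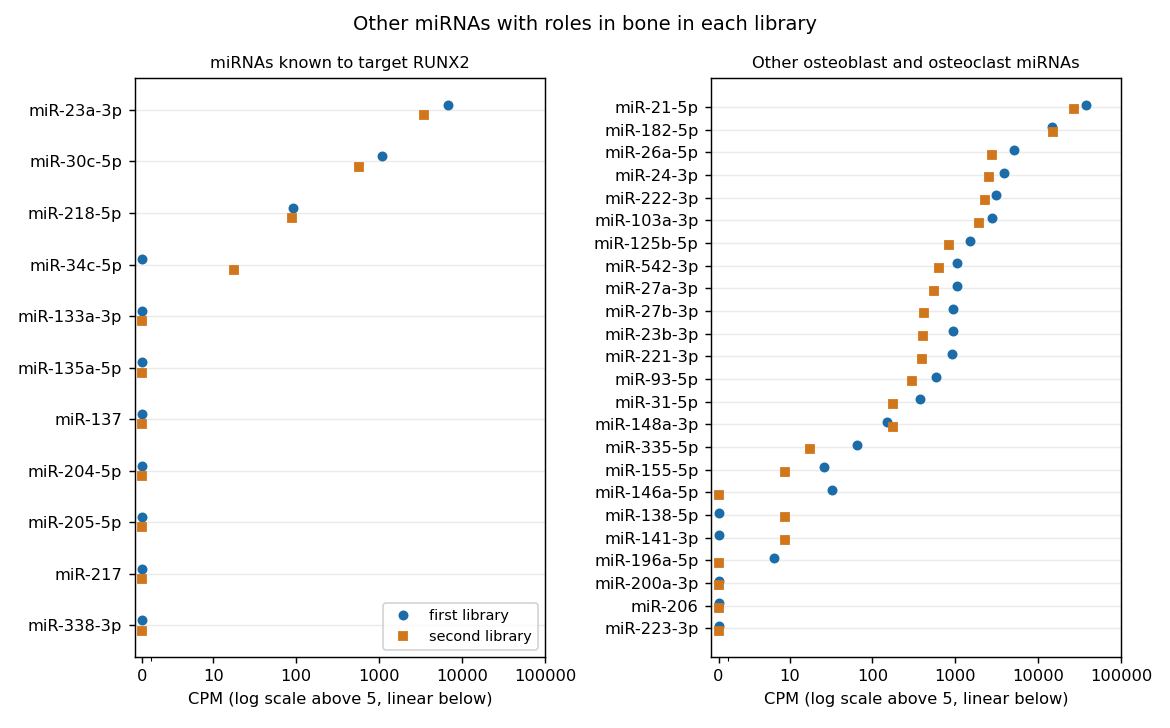
CPM (x axis, logarithmic above 5 and linear below) in the first (circles) and second (squares) small RNA library for 11 miRNAs known to target RUNX2 (left) and 24 other osteoblast and osteoclast miRNAs (right). On the left 3 names lie above 0 in both libraries and 7 at 0 in both, and on the right 17 lie above 0 in both and 3 at 0 in both.

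The known targets of the group show where its seeds could pair. In the 3′ UTR of the reference transcript of each gene, the 7 letters complementary to the seed were searched on the mRNA strand. The letters TGGTGCT, for the seed of miR-29, were found in 7 of 10 known targets and in 14.0% of all 19547 3′ UTRs. The letters ACGCACA, for miR-210-3p, were found in 2 of 2 targets and in 3.02% of all 3′ UTRs. AAGCACA, for miR-218-5p, was found in 3 of 3 targets (RUNX2, SOST and DKK2) and in 14.0%. SFRP2, named above for miR-218 as well, was searched only for the letters of miR-29. The median 3′ UTR was 1064 bases over all genes, 1031 among the miR-29 targets, 1982 among the miR-210 targets and 2152 among the miR-218 targets. The targets are a choice from the literature, partly made by such matches, so the counts describe the list and carry no test. Sites of the 3 members counted above the limit, 1 per gene and without COL3A1, SPARC and CTNNBIP1, are shown with the match in capitals, 20 bases before it and 1 after it, in GRCh38.
COL1A1, chr17:50184572-50184599, minus strand, miR-29: tggggtggggagggaatcacTGGTGCTa
COL1A2, chr7:94430893-94430920, plus strand, miR-29: agatacttgaagaatgttgaTGGTGCTa
KREMEN2, chr16:2968149-2968176, plus strand, miR-29: aaagtcggacaggaaacatcTGGTGCTa
HDAC4, chr2:239052680-239052707, minus strand, miR-29: aaaacaaacttgattaaaacTGGTGCTt
ACVR1B, chr12:51994132-51994159, plus strand, miR-210: agctcctggcagcgagaactACGCACAg
EFNA3, chr1:155087321-155087348, plus strand, miR-210: gtgaagacaggacctatgcaACGCACAg
RUNX2, chr6:45548593-45548620, plus strand, miR-218: tcttgtcatattaaaaagacAAGCACAa
SOST, chr17:43753975-43754002, minus strand, miR-218: aaaaaaaaagttttaaacagAAGCACAt
DKK2, chr4:106923679-106923706, minus strand, miR-218: aatgctattattaagagaacAAGCACAc

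The letters for miR-29 were not in the 3′ UTRs searched of DKK1, SFRP2 and TGFB3. For the scarcer members, CACTGCC (miR-34a-5p) was found in 3 of 3 targets against 15.6% of all 3′ UTRs, AAAGGGA (miR-204-5p) in 1 of 1 against 17.3%, and CCTGCTG (miR-214-3p) in 1 of 2 against 21.1%. GGACCAA (miR-133a-3p) was found in 0 of 1 against 7.72%, and AACTGGA (miR-145-5p) in 0 of 1 against 13.3%.

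The messages of the known targets were looked up in the total RNA of the vesicles. Of 20 known targets, 7 (35.0%) had a read in both total RNA libraries, against 21.9% of all protein-coding genes. A read in either library was found for 9 of the 20, against 42.3% of all protein-coding genes, and 11 had none. Among the 10 targets of miR-29, 4 had a read in both. DKK1, an inhibitor of Wnt signalling, had 16 and 13 reads in replicates 1 and 2, 30.0 CPM ± 3.81 (SD, n = 2). HDAC4, a repressor of RUNX2, had 32 and 9 reads, 42.2 CPM ± 32.9 (SD, n = 2). COL1A1 had 35 reads and 1, and COL1A2 had 1 read and 12, so the messages for the chains of type I collagen were uneven between the libraries in opposite directions. TGFB3 had 0 and 16 reads. COL3A1, SPARC, KREMEN2, SFRP2 and CTNNBIP1 had none.

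Among targets of the other members, NOTCH1, the receptor that miR-34 acts on, had 51 reads in each library, 106 CPM ± 2.05 (SD, n = 2). ATF4, a transcription factor of late osteoblasts and a target of miR-214, had 12 and 30 reads, 43.8 CPM ± 27.2 (SD, n = 2). ACVR1B, the target of miR-210 in osteoblasts, had 20 and 4 reads, 24.6 CPM ± 23.0 (SD, n = 2), while EFNA3, its target in vessel cells, had none. The Notch ligand JAG1 had 0 and 9 reads. No read was counted for RUNX2, SP7, SOST, DKK2 or TGIF2 in either library. A gene without a read can reach 6.13 CPM in replicate 1 and 6.30 CPM in replicate 2, so these messages were not detected at this depth. That depth is small because 2.50% and 2.16% of the reads handled in the gene counting fell on genes. The study's account differs, since it names RUNX2 and EFNA3 among genes that its RNAseq placed in vesicles of PCa lines. It reports qPCR on PC3 vesicle RNA as showing that the chosen genes are present, and it describes EFNA3 as detectable in the PC3 vesicle cargo. The study also recovered labelled RUNX2, but not labelled EFNA3, from osteoblasts given PC3 vesicles. The source of this difference was not tested. Opposite-strand genes overlap JAG1 (an unnamed lncRNA gene with 16 and 20 reads), TGFB3 (TGFB3-AS1, 5 and 0), KREMEN2 (PKMYT1, 32 and 48), SPARC (CLMAT3, 0 and 11) and RUNX2 (SUPT3H, 0 and 2).

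**Figure D5:**
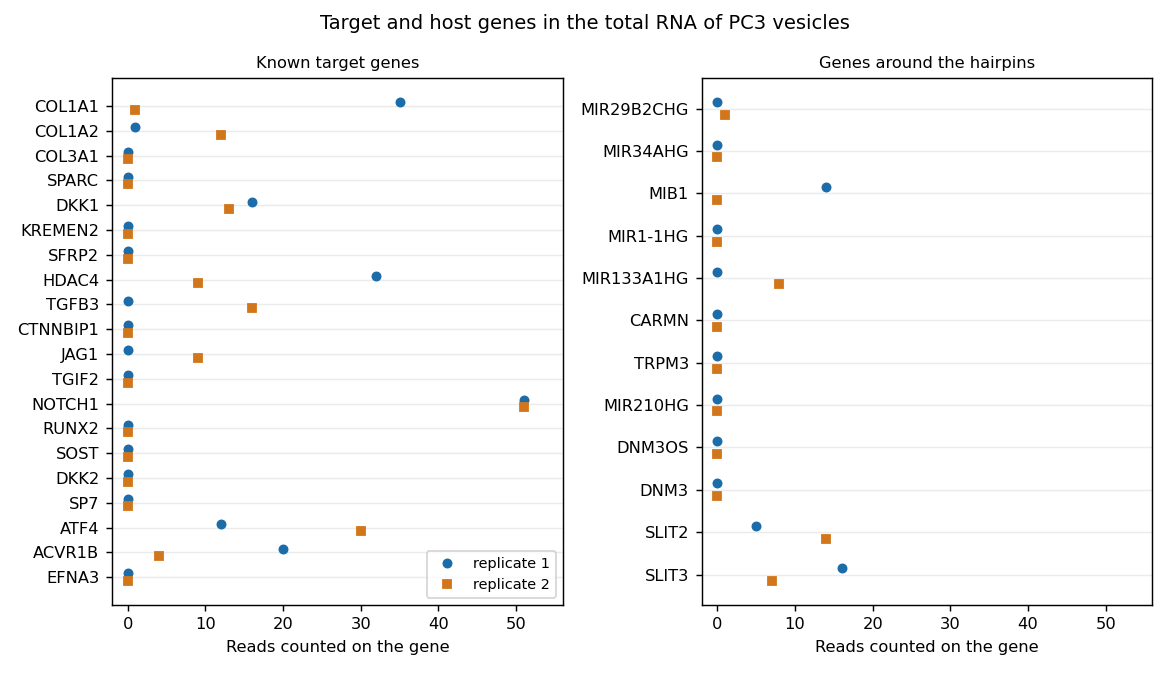
Reads counted on each gene (x axis, linear) in replicates 1 (circles) and 2 (squares) of the total RNA, for the 20 known target genes (left) and the 12 host genes (right), of which MIB1 and DNM3 lie on the strand opposite to the hairpin. NOTCH1 has 51 reads in both replicates, COL1A1 has 35 and 1, and of the hosts SLIT2 and SLIT3 have reads in both.

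Markers of the labelled cell line and of other cells were read beside these values. PC3 cells express KRT8, KRT18, VIM, CD44 and EPCAM, and all 5 had a read in both total RNA libraries, against 21.9% of all protein-coding genes. The counts were 966 and 1088 for KRT8, 94 and 87 for KRT18, 130 and 87 for VIM and 72 and 44 for CD44. EPCAM had 2 and 26 reads, so in replicate 1 it was below the limit of 3 reads. KLK3 and TMPRSS2, genes of luminal prostate cells that are low or absent in PC3, had no read. A read in either library was found for only 42.3% of all protein-coding genes, so these zeros do not identify the line. Among all miRNA names, 14.9% had a read in both libraries, and 0 or 1 in lists as short as those below cannot be set apart from that share. The muscle list had 0 of 5 names with a read in both libraries and summed to 6.49 and 0 CPM. In it miR-133b, miR-206, miR-208a-3p and miR-499a-5p were at 0. The list of smooth muscle and fibroblast miRNAs, which includes miR-145-5p and miR-214-3p, had 1 of 7 and summed to 25.9 and 8.84 CPM. The myeloid list had 0 of 3 and no read. The erythroid list had 1 of 4, miR-486-5p with 6 and 7 reads, 50.4 CPM ± 16.2 (SD, n = 2), while the defining miR-451a had none. MiR-122-5p, a liver miRNA, had 39 and 26 reads, 241 CPM ± 16.4 (SD, n = 2), a level above those of miR-210-3p and miR-218-5p in both libraries, and the part of such RNA in the levels of the group was not tested.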

How the data were processed

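EVs of PC3 cells gave 2 small RNA and 2 total RNA libraries on an Illumina NextSeq. The deposited small RNA values are raw counts per mature miRNA, which the authors made by adapter trimming (Cutadapt) and mapping (SHRiMP), without normalisation. The deposited total RNA values are raw counts per Ensembl gene, made by the authors with HTSeq on GRCh38 alignments. The 2 small RNA columns share a name and were used as replicates without a number. Tool versions, strand setting and the handling of reads that fit several places are not given in the sources used here.

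The 10 miRNAs, the gene lists and the alternatives were chosen with earlier results of these data known. The named features are the members, their opposite arms and relatives, the fixed lists, the neighbours in rank of the most abundant member, host genes and known targets. Some genes covered by these lists are not reported here and are left out of the counts of targets and markers. CPM was the count per 1000000 reads counted on miRNAs or genes. Rows of HTSeq that name no gene were left out, and 2.50% and 2.16% of the reads in those tables were counted on genes. Shares carry 95% Wilson intervals, ratios carry exact (Clopper-Pearson) intervals conditional on the counts, and the limit of a count of 0 was 3 reads. These functions were tested on simulated data. With 1 condition, no test was run. TMM (edgeR 4.0.16) and median-of-ratios (DESeq2 1.42.0) factors came from R 4.3.3, and other values from scipy 1.17.1, numpy 2.4.6 and pandas 2.3.3 under Python 3.11.15. Plots were made in matplotlib 3.10.9. Mature sequences are from RefSeq (GRCh38.p14) and gene models from GENCODE release 44, which matched 56948 of 58051 gene identifiers. 3′ UTRs were those of each gene's canonical transcript. Alternatives were other count minimums, other library totals and leaving out each library.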

Additional observations from a re-analysis of the deposited data

How the results depend on the processing

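Each count of identified features was repeated with other count minimums and each level with other library totals. Of the counts, those of the 10 miRNAs (3 to 5), of the RUNX2 regulators (3 to 4) and of the other osteoblast and osteoclast miRNAs (15 to 21) stayed within 1.5 times the values reported. The relatives identified went from 0 to 2 of 8 when a read in either library sufficed, against 29.6% of all names. The 12 named host genes with a read went from 2 to 5 with a read in either library, against 42.3% of all protein-coding genes. With at least 10 reads in both, the host genes went to 0 and the 20 targets from 7 to 3. The share of all genes at that minimum was not computed, so these counts describe the lists alone. With each library left out in turn, the range was 4 to 5 for the 10 miRNAs and 1 to 1 for the relatives. In a single library, 622 (first) and 529 (second) of all 2588 names had a read. The range was 3 to 4 for the host genes and 7 to 9 for the targets, and the share of all genes in a single library was not computed. The summed share ranged from 0.0698 to 0.137% and the miR-29 family from 486 to 1077 CPM. Without miR-3182 and miR-4448 in the total, the summed share rose from 0.103% to 0.220% and the miR-29 family from 781 to 1655 CPM, and miR-29a-3p, miR-29b-3p, miR-210-3p and miR-218-5p were at 1638, 16.9, 341 and 195 CPM, because the total is smaller. With that total the ratio between libraries was 1.94 for miR-29a-3p, 1.36 for miR-210-3p and 0.887 for miR-218-5p, below 1 as with TMM. The order of the 5 members with a read was the same in either library, with miR-29b-3p and miR-214-3p tied in the first, and in the summed counts. No paired analysis was possible because all libraries belong to 1 condition, so that no groups are compared, and the small RNA columns have no replicate number. Depth limits every statement on the 7 members with 0 or 1 reads.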
